A study of Homo sapiens with 33 samples.

Results

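Transcripts of 10 genes were followed across 33 RNA-seq libraries of human acute lymphoblastic leukaemia (ALL) cell lines: the forkhead transcription factors FOXO1, FOXO3 and FOXO4, and 7 genes that resemble FOXO targets, DEPP1, KLHL24, ABTB1, CITED2, BCL6, CCNG2 and IRS2. They are 10 of the 62446 gene rows counted in every library, and each was matched to its row by gene identifier. The set was selected on measured log2 fold changes under CHIR-99021, for which DEPP1, ABTB1 and KLHL24 were low, so values of all 10 genes under that compound are a description and carry no test. The question is whether these genes rise under a glucocorticoid together with other FOXO targets.

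The libraries form 11 groups of 3. Nalm6, a B-cell precursor ALL line, was untreated or held for 24 h with 0.5 µM CHIR-99021 (which blocks the kinase GSK3 and so stabilises beta-catenin) or 5 µM prednisolone, and a further pair of groups was untreated or held with 100 nM dexamethasone. Both steroids are glucocorticoids. A Nalm6 derivative edited at TLE1, a gene for a transcriptional co-repressor, was left without drug or treated for the same time with prednisolone (5 µM) or dexamethasone (100 nM). Whether the derivative is 1 clone or a pool is not given in the sources used here. CEM, a T-cell ALL line, was left without drug or treated for 24 h with CHIR-99021 at 2 µM or prednisolone at 10 µM. According to the labels, Nalm6 and its derivative grew in RPMI-1640 with charcoal-stripped serum, which all of their groups share, controls included.

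FOXO proteins are transcription factors held in check by growth-factor signalling. Active AKT or SGK kinases phosphorylate them, which moves them from the nucleus to the cytoplasm, and when that signal weakens they return and switch on genes of cell-cycle arrest, cell death, stress defence and metabolism. In early lymphocytes FOXO1 is known for its part in receptor gene rearrangement and in interleukin-7 receptor expression. Since their activity is set largely by phosphorylation, transcript levels of the factors and of their targets need not move together.

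Each library held between 25292579 and 61930057 counts assigned to genes. Levels are given as CPM, counts per 1000000 gene counts of a library, and tests are edgeR quasi-likelihood tests with p-values adjusted over all genes tested, where a gene is called at an adjusted p under 0.05. The series text mentions independent experiments for some groups only, so p-values measure the spread between these libraries, which may in part be technical. Summed B-cell precursor markers were 1838 to 2510 CPM in Nalm6 and 1944 to 2376 in the derivative, against 59.1 to 96.3 in CEM, where PAX5 and EBF1 stayed under 1 CPM. Summed T-cell markers were 1299 to 1466 CPM in CEM and 2.83 to 7.03 in the other lines, and summed myeloid markers were at most 7.06 CPM in any library. TLE1 itself was still transcribed in the derivative, at 24.5 ± 0.783 CPM (SD, n = 3) against 32.0 ± 1.89 CPM in untreated Nalm6, and where in the gene the edit lies is not given in the sources used here. TSC22D3, a standard glucocorticoid-induced gene, rose in all 5 glucocorticoid comparisons, by 3.99 to 5.96 on the log2 scale (edgeR adjusted p at most 6.25e-11). The untreated Nalm6 groups differed from each other in 50.2% of genes, and the titles tie only the dexamethasone controls to a drug. Dexamethasone-treated Nalm6 was set against those controls (the dexamethasone set), and CHIR-99021 and prednisolone against the untreated Nalm6 group with no drug in its title. Which group prednisolone was run with is not given in the sources used here, so values with the dexamethasone set as controls are printed where they change a result. Reads outside genes made up 26.3% to 32.7% of the prednisolone-treated Nalm6 libraries. They made up 26.4% to 28.3% of the untreated group with no drug in its title and 19.2% to 19.7% of the dexamethasone set. Whether this reflects a shared run was not tested. In bulk RNA, fewer expressing cells and less RNA per cell cannot be told apart.

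The promoters of the genes that moved most under steroid in Nalm6, and of the factor with a forkhead match, are shown first. The windows run from 250 bases before to 50 bases after each RefSeq start (GRCh38.p14), and 9 of the 10 genes were matched, with 15 windows. ABTB1 had no window, so its promoter could not be searched. In DEPP1, which had the greatest rise of the 10 genes under steroid in Nalm6, the capitals mark the forkhead core TGTTTAC as it reads from the opposite strand, beginning 180 bases before the start (chr10:44978810-44979059, minus strand).
DEPP1: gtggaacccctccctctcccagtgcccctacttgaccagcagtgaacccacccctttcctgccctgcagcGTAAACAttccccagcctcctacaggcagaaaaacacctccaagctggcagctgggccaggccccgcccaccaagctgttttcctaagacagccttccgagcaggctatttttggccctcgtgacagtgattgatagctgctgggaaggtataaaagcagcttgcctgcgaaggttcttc
In KLHL24 the capitals mark TGTTTTG, the core of an insulin response element, beginning 32 bases before the start (chr3:183635373-183635622, plus strand).
KLHL24: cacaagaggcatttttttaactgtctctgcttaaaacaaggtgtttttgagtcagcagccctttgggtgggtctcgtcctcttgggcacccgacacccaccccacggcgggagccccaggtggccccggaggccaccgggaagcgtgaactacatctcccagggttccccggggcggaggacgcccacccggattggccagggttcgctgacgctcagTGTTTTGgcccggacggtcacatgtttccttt
BCL6 fell under steroid in Nalm6, where DEPP1 and KLHL24 rose, and the capitals in its second window mark the TCF/LEF core CTTTGA, beginning 127 bases before that start (chr3:187745469-187745718, minus strand).
BCL6: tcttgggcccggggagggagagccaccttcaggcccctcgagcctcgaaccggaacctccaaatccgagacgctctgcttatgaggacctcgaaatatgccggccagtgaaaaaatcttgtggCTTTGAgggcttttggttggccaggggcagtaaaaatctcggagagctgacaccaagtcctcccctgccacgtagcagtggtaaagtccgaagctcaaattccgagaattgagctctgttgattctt
A short stretch of FOXO4 holds the same forkhead core, in capitals and again on the opposite strand, beginning 23 bases after the start (chrX:71095864-71095890, plus strand).
FOXO4: ccggcgagtgGTAAACAgagacgtcag
Both strands were searched for each motif. TGTTTAC was present in 3.42% of all 35116 windows and in those of DEPP1 and FOXO4. TGTTTTG, which begins alike, was present in 4.92% of all windows and in those of KLHL24 and IRS2. AGAACA, a core of glucocorticoid receptor sites, was in 14.8% of all windows and in 1 BCL6 window, and CTTTGA was in 12.9% and in the other BCL6 window. These matches describe letters in a window. Binding was not measured.

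Nalm6 and CEM expressed different FOXO genes. FOXO1 stood at 81.9, 82.5 and 84.8 CPM in the untreated Nalm6 libraries with no drug in their title and at 72.3, 79.0 and 71.4 CPM in those of the dexamethasone set, but at 0.108, 0.241 and 0.177 CPM in untreated CEM. No CEM library reached 0.3 CPM under any treatment, and no library of Nalm6 or its derivative fell under 60 CPM. Per kilobase of exon, FOXO1 was the most abundant of the 3 factors in untreated Nalm6, with 13.3 ± 0.254 CPM per kilobase (SD, n = 3), followed by FOXO3 with 5.48 ± 0.130 and FOXO4 with 2.81 ± 0.142. In untreated CEM FOXO3 led with 6.20 ± 0.141 CPM per kilobase, then FOXO4 with 4.71 ± 0.161, and FOXO1 was at 0.0282 ± 0.0107. FOXO3 has a near-identical pseudogene, which makes its counts from uniquely mapped reads less certain.

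**Figure D1:**
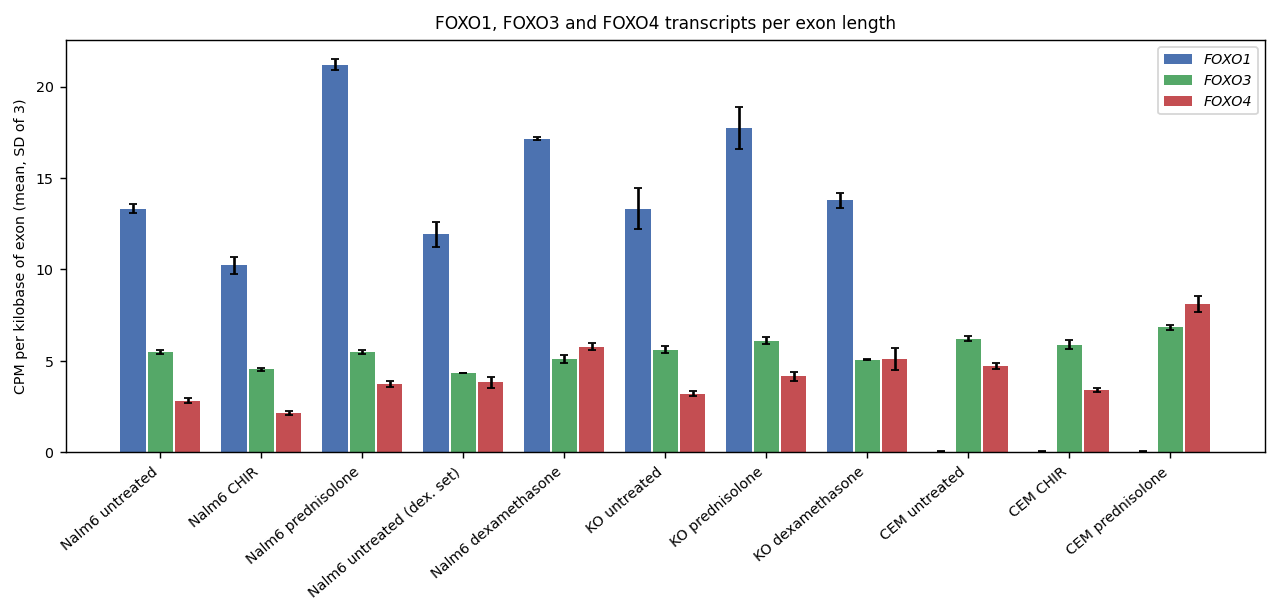
Levels of FOXO1, FOXO3 and FOXO4 in the 11 groups, in CPM per kilobase of exon (bars: mean of 3 libraries; error bars: SD). FOXO1 is the tallest bar in all 8 groups of Nalm6 and its knockout derivative (KO) and is close to 0 in the 3 CEM groups, where FOXO3 or FOXO4 is tallest.

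The target-like genes were also unequal between the lines. In untreated Nalm6 with no drug in its title, per kilobase, DEPP1 (a FOXO-induced gene linked to autophagy) was the most abundant with 9.90 CPM, then KLHL24 (a Kelch-like substrate adaptor of a ubiquitin ligase) with 8.23, CITED2 (a transcriptional co-regulator) with 6.49, IRS2 (an adaptor of the insulin receptor) with 3.33, CCNG2 (an atypical cyclin that restrains the cell cycle) with 2.90, BCL6 (a transcriptional repressor of B-cell development) with 2.52 and ABTB1 (an ankyrin-repeat and BTB-domain protein) with 1.25. In the dexamethasone set KLHL24 stood first with 11.3 CPM per kilobase and DEPP1 second with 7.84, and BCL6 with 4.86 stood above CCNG2 with 3.97 and IRS2 with 2.58. IRS2 had no count in any of the 9 CEM libraries, and at the limit of 3 counts in the shallowest untreated CEM library its level was at least 236-fold lower than in untreated Nalm6 of the dexamethasone set. DEPP1 was at 0.114 CPM or less in every CEM library. FOXO1, DEPP1 and IRS2 were too low for a treatment response to be tested in CEM, and the other 7 genes were tested there.

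All 10 genes passed the filter when untreated CEM was set against untreated Nalm6 of the dexamethasone set, FOXO1, DEPP1 and IRS2 through Nalm6 alone, which fixes their direction. Of the other 7, 4 were higher in CEM and 3 lower, in a comparison where 77.5% of all genes were called (40.2% higher and 37.3% lower). FOXO3, FOXO4, ABTB1 and CCNG2 were higher, by 0.26 to 0.61 on the log2 scale. KLHL24 was lower by 1.79 ± 0.06 (log2 ± SE), CITED2 by 1.28 ± 0.07 and BCL6 by 1.25 ± 0.06. The choice of controls mattered most for BCL6, which was lower by 0.22 against the other untreated Nalm6 group (edgeR adjusted p = 0.0164), while CCNG2 was then higher by 1.15 and FOXO4 by 0.79. FOXO3 was higher by 0.47 in the first comparison and by 0.23 in the second.

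CHIR-99021 was accompanied by lower levels of 9 of the 10 genes in Nalm6, and BCL6 alone was higher. DEPP1 read 26.0, 30.5 and 31.9 CPM untreated and 8.49, 10.5 and 12.8 CPM under the compound, a log2 difference of -1.46 ± 0.12 (SE). ABTB1 read 7.99, 7.47 and 7.51 CPM untreated and 2.76, 3.22 and 2.34 CPM treated (-1.47 ± 0.11), and KLHL24 read 70.9, 73.3 and 69.2 CPM untreated and 35.9, 38.3 and 40.3 CPM treated (-0.90 ± 0.05). For these 3 genes the treated libraries lay below all 6 untreated Nalm6 libraries of both sets. DEPP1 and ABTB1 were chosen for their falls in this comparison, so nothing is read from their separation. How many of all genes separate in this way was not counted. CCNG2 was lower by 0.70, IRS2 by 0.44, FOXO4 by 0.40, FOXO1 by 0.38, CITED2 by 0.30 and FOXO3 by 0.27 on the log2 scale. BCL6 went from 16.8, 13.1 and 14.9 CPM to 40.1, 31.8 and 28.3 CPM, a log2 difference of 1.15 ± 0.12. Those treated BCL6 libraries overlapped the untreated libraries of the dexamethasone set, which read 28.8, 27.8 and 29.9 CPM. IRS2 under CHIR-99021 overlapped that set too, and FOXO3 lay just above it. The median over the 10 genes was -0.42 against -0.01 over all genes, and 7.88% of all genes were called in this comparison (3.16% higher and 4.72% lower), a share from which nothing is read because the choice of genes used it.

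In CEM the dose of CHIR-99021 was 2 µM, so sizes are not compared with Nalm6. KLHL24 stood at 29.6, 27.5 and 30.1 CPM untreated and at 12.4, 12.3 and 12.7 CPM treated, a log2 difference of -1.20 ± 0.05. ABTB1 stood at 12.6, 15.3 and 12.1 CPM untreated and at 6.42, 5.76 and 5.56 CPM treated (-1.15 ± 0.10). FOXO4 and CCNG2 were each lower by 0.45 and CITED2 by 0.37, with no overlap between the groups, whereas the FOXO3 groups overlapped (-0.06). BCL6 was higher by 0.23. KLHL24 and ABTB1 were thus lower under the compound in both lines, but KLHL24 was chosen for its fall in CEM and ABTB1 for its fall in Nalm6. Over all genes, 10.8% were called under CHIR-99021 in CEM (5.41% higher and 5.43% lower), and again nothing is read from it for the chosen genes. No gene just inside or outside a threshold can be given, since the choice names genes and states no cut-off.

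**Figure D2:**
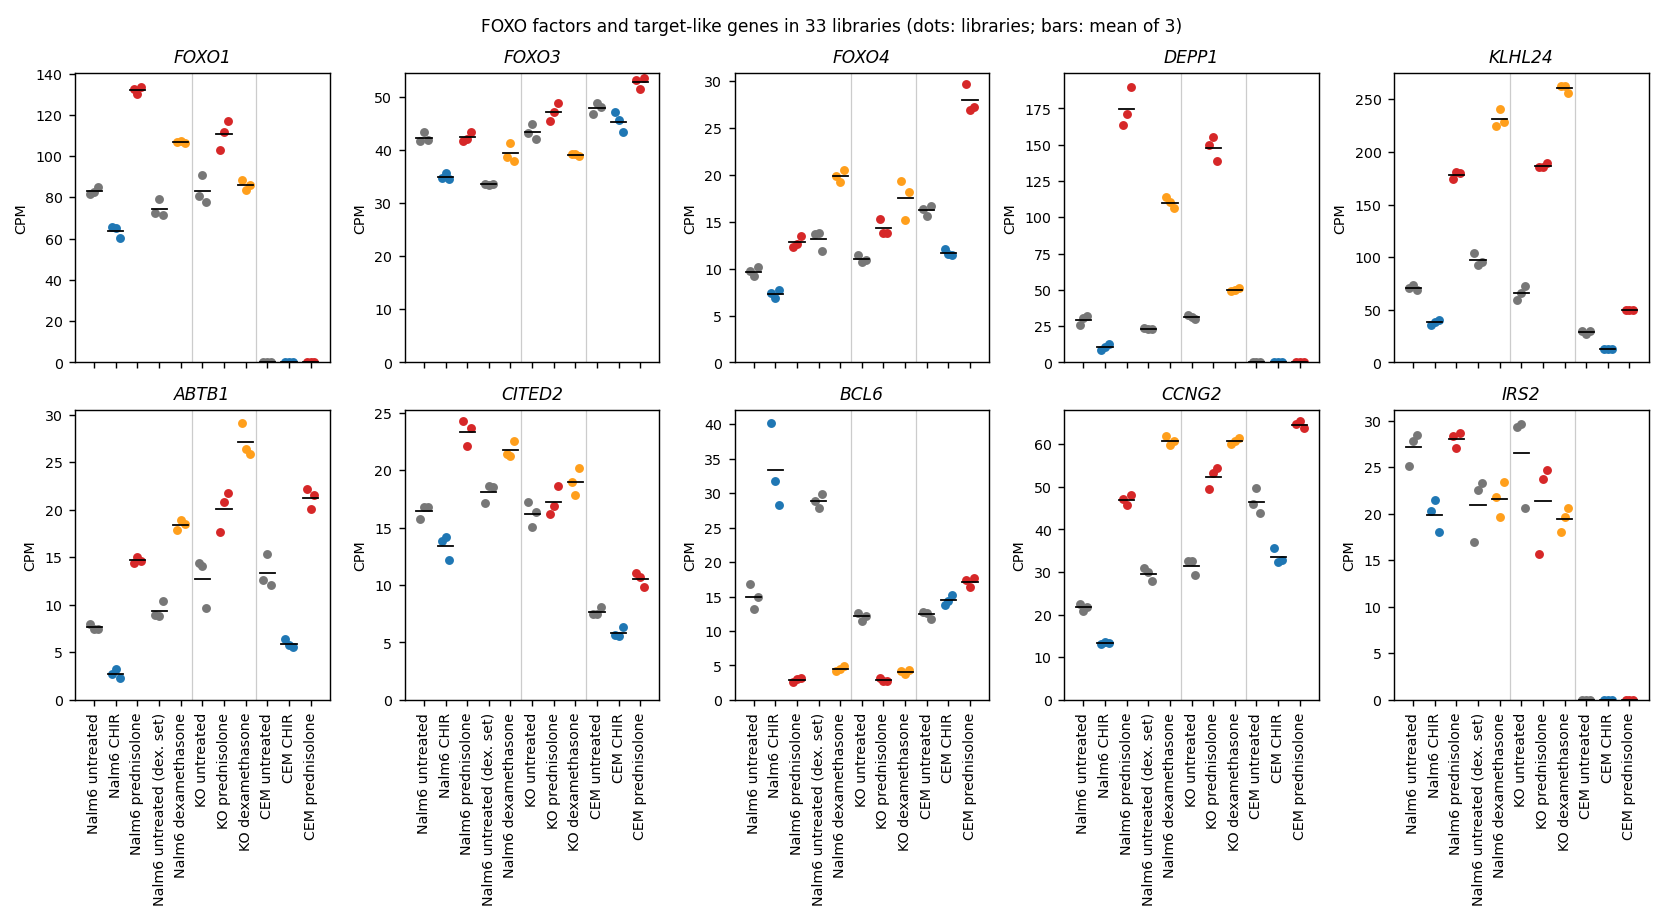
CPM of each gene in all 33 libraries (dots: libraries, black bars: mean of 3; grey untreated, blue CHIR-99021, red prednisolone, orange dexamethasone; each axis starts at 0; KO, knockout derivative). KLHL24 and ABTB1, and DEPP1 outside CEM, have blue dots below and red and orange dots above the grey dots they are compared with. BCL6 shows the opposite order in Nalm6, its blue dots overlapping the grey dots of the dexamethasone set.

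Prednisolone raised all 3 genes chosen for low levels under CHIR-99021 in Nalm6. DEPP1 reached 163, 171 and 190.1 CPM, which was 5.83-fold above its controls (log2 fold change 2.54 ± 0.07, edgeR adjusted p = 6.87e-15). KLHL24 reached 174, 181 and 179.6 CPM (1.30 ± 0.04, adjusted p = 1.17e-14) and ABTB1 14.4, 15.0 and 14.6 CPM (0.91 ± 0.06, adjusted p = 1.99e-09). Every treated library lay above all 6 untreated Nalm6 libraries for all 3. Here and in the other comparisons, how many of all genes separate without overlap was not counted. These controls are the same 3 libraries that the CHIR-99021 comparison uses, so both comparisons share any deviation of theirs. Of all 10 genes, 7 rose, 1 fell and 2 were not called, beside 54.8% of all genes called (28.7% higher and 26.1% lower). The median over the 10 was 0.56 against 0.03 over all genes. Of the 7 genes other than DEPP1, KLHL24 and ABTB1, 4 rose and 1 fell (median 0.38).

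Dexamethasone gave the same question a comparison in Nalm6 with no library in common with CHIR-99021. DEPP1 went from 23.9, 23.0 and 23.2 CPM to 114, 110.4 and 106 CPM, a 4.60-fold rise (log2 fold change 2.20 ± 0.05, edgeR adjusted p = 3.64e-14). KLHL24 went from 104, 93.0 and 95.8 CPM to 225, 241 and 228 CPM (1.21 ± 0.05, adjusted p = 8.19e-11), and ABTB1 from 8.89, 8.86 and 10.4 CPM to 17.9, 19.0 and 18.5 CPM (0.94 ± 0.07, adjusted p = 4.42e-08). Again no treated library overlapped a control. In this comparison 8 of the 10 genes rose and 1 fell, beside 60.5% of all genes called (30.2% in each direction), with a median of 0.52 against 0.02 over all genes. Of the 7 others, 5 rose and 1 fell (median 0.23).

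CCNG2, a FOXO target that slows cell division, rose about as much as KLHL24 and ABTB1. It went from 22.4, 20.8 and 21.9 CPM to 47.2, 45.7 and 48.1 CPM with prednisolone, a log2 fold change of 1.09 ± 0.05, and from 31.0, 30.1 and 27.9 CPM to 61.8, 59.9 and 60.7 CPM under dexamethasone (1.00 ± 0.05; edgeR adjusted p at most 5.18e-10 in both). Neither treated group overlapped its controls. CITED2 rose less, by 0.48 ± 0.06 under prednisolone (adjusted p = 1.27e-06) and 0.23 ± 0.06 under dexamethasone (adjusted p = 0.00311). IRS2, induced by FOXO proteins in liver, was not called under either steroid, with a log2 fold change of 0.02 in each (edgeR adjusted p = 0.766 and 0.882).

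BCL6 fell under both steroids in Nalm6. It dropped from 16.8, 13.1 and 14.9 CPM to 2.55, 3.02 and 3.21 CPM under prednisolone, 5.13-fold lower (-2.36 ± 0.11 on the log2 scale, edgeR adjusted p = 7.15e-12). Under dexamethasone it dropped from 28.8, 27.8 and 29.9 CPM to 4.21, 4.55 and 4.87 CPM, 6.51-fold lower (-2.70 ± 0.07, adjusted p = 5.60e-13). The dexamethasone-treated libraries lay above the prednisolone-treated ones, and their controls differed by 1.01 on the log2 scale. With the dexamethasone set as controls, prednisolone left BCL6 at -3.39. BCL6 was thus the gene with the opposite sign to DEPP1, KLHL24 and ABTB1 under CHIR-99021 and under both steroids in Nalm6.

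Among the factors in Nalm6, FOXO1 and FOXO4 rose under both steroids. FOXO1 reached 132, 130.0 and 134 CPM with prednisolone, 1.56-fold above its controls (log2 fold change 0.64 ± 0.04, edgeR adjusted p = 2.09e-10), and 107, 107 and 106 CPM under dexamethasone (0.49 ± 0.04, adjusted p = 2.42e-07). FOXO4 rose by 0.38 ± 0.07 under prednisolone (adjusted p = 1.54e-04) and by 0.56 ± 0.07 under dexamethasone (adjusted p = 8.51e-06). FOXO3 was not called under prednisolone (-0.02, adjusted p = 0.659) and rose by 0.19 ± 0.05 under dexamethasone (adjusted p = 0.00235). Against the untreated libraries of the dexamethasone set, prednisolone left FOXO4 at -0.15 (edgeR adjusted p = 0.121) and FOXO3 at 0.22 (adjusted p = 0.00174). With those controls the rises under prednisolone were smaller for KLHL24 (0.75), ABTB1 (0.53), CCNG2 (0.55) and CITED2 (0.25), all still called, IRS2 was called at 0.31 and DEPP1 stood at 2.79.

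In the TLE1-edited derivative prednisolone raised 6 of the 10 genes and lowered 1, beside 41.7% of all genes called (19.8% higher and 21.9% lower), with a median of 0.35 against -0.003 over all genes. Of the 7 genes other than DEPP1, KLHL24 and ABTB1, 3 rose and 1 fell, and their median was 0.08. DEPP1 went from 32.7, 31.1 and 29.8 CPM to 150.0, 156 and 139 CPM (log2 fold change 2.21 ± 0.07, edgeR adjusted p = 6.58e-09). KLHL24 went from 58.9, 65.7 and 72.2 CPM to 185, 186 and 189.9 CPM (1.47 ± 0.08, adjusted p = 3.92e-07). ABTB1 went from 14.4, 14.0 and 9.70 CPM to 17.7, 20.8 and 21.8 CPM (0.62 ± 0.14, adjusted p = 0.00467), its control library 3 standing below the other two. All 3 groups of treated libraries lay above their controls. CCNG2 rose by 0.69, FOXO1 by 0.37 and FOXO4 by 0.34, and BCL6 fell by 2.10 on the log2 scale. FOXO3 (0.08), CITED2 (0.05) and IRS2 (-0.36) were not called, though IRS2 was called without the third untreated library (-0.51, edgeR adjusted p = 0.0227).

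Dexamethasone in the derivative was set against the same 3 untreated libraries, the only untreated group it has, so treatment and library set cannot be told apart, and both steroid comparisons share any deviation of those libraries. Here 6 of the 10 genes rose and 2 fell, beside 52.3% of all genes called (26.0% higher and 26.3% lower), with a median of 0.47 against -0.01. Of the 7 genes other than DEPP1, KLHL24 and ABTB1, 3 rose and 2 fell, and their median was 0.06. KLHL24 reached 263, 262 and 256 CPM, its highest group in the series (log2 fold change 2.00 ± 0.08, edgeR adjusted p = 2.32e-08). ABTB1 reached 29.1, 26.4 and 25.8 CPM (1.11 ± 0.12, adjusted p = 3.72e-05). DEPP1 reached 49.2, 49.7 and 51.4 CPM (0.70 ± 0.06, adjusted p = 4.44e-06), above its controls but below every prednisolone-treated library of the derivative. CCNG2 rose by 0.96 and BCL6 fell by 1.56. FOXO4 (0.69), CITED2 (0.25) and IRS2 (-0.43) were also called, but not once the difference between both untreated Nalm6 groups was subtracted (0.18, 0.05 and -0.12; edgeR adjusted p = 0.276, 0.739 and 0.651). That subtraction left KLHL24 at 1.48, ABTB1 at 0.75, DEPP1 at 0.97, CCNG2 at 0.45 and BCL6 at -2.56, all called. Calls of CITED2 and IRS2 were lost as well without single libraries, CITED2 without the second untreated (adjusted p = 0.0875), the first treated (0.061) or the third treated library (0.12), and IRS2 without the second untreated (0.0586) or the first treated library (0.066). FOXO1 (0.06) and FOXO3 (-0.13) were not called, and FOXO3 was called without the third untreated library (-0.15, adjusted p = 0.0274).

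The response to prednisolone itself differed between the derivative and Nalm6 for 2 of the 10 genes, beside 3.48% of all genes (1.10% higher and 2.38% lower). CCNG2 rose by 0.37 ± 0.08 less in the derivative (log2 ± SE, edgeR adjusted p = 0.0188) and CITED2 by 0.41 ± 0.11 less (adjusted p = 0.0439). CITED2 lost this call in the unstranded counts and without any of 8 of the 12 libraries (edgeR adjusted p from 0.0705 to 0.131), the exceptions being untreated replicates 2 and 3 and treated replicate 3 of the derivative and treated replicate 2 of Nalm6. CCNG2 lost it without untreated replicate 2 or 3 or treated replicate 1 or 3 of Nalm6, or without untreated replicate 2 of the derivative (adjusted p from 0.0516 to 0.0740). Without the third untreated library of the derivative, 5 genes were called, with FOXO1 (-0.29), ABTB1 (-0.43) and KLHL24 (0.27) added, and without a filter on low counts DEPP1 and IRS2 were added (adjusted p = 0.0480 and 0.0410). The differences for DEPP1 (-0.31 ± 0.11, adjusted p = 0.156), KLHL24 (0.20 ± 0.09, adjusted p = 0.298) and ABTB1 (-0.27 ± 0.16, adjusted p = 0.415) were not called with all libraries in. With the dexamethasone set as Nalm6 controls, an alternative added after the data had been seen, CCNG2 turned to 0.16 (adjusted p = 0.198) and CITED2 was at -0.19 (adjusted p = 0.210). The genes called were then FOXO1 (-0.33), DEPP1 (-0.57), IRS2 (-0.65), FOXO4 (0.50), KLHL24 (0.73) and BCL6 (1.31), with edgeR adjusted p at most 0.0363. FOXO1 and DEPP1 rose less in the derivative, and BCL6 fell less there. With these controls IRS2 rose in Nalm6 (0.31) but not in the derivative. No gene of the 10 was thus called with both sets of controls. Under prednisolone the level of CCNG2 was 47.0 ± 1.20 CPM in Nalm6 and 52.4 ± 2.57 CPM in the derivative (SD, n = 3).

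For dexamethasone a comparison of this kind was added after the data had been seen. It sets the derivative against Nalm6, both under dexamethasone, relative to the untreated derivative and the untreated Nalm6 group with no drug in its title. DEPP1 differed most, rising by 1.24 ± 0.09 less in the derivative (edgeR adjusted p = 2.89e-08), and in a total of 5 genes the difference was called, beside 30.3% of all genes (13.7% higher and 16.6% lower). DEPP1 kept this call under all 19 other settings, with values from -1.53 to -1.16. CCNG2 (-0.56), FOXO1 (-0.34) and FOXO4 (-0.38) also responded less and KLHL24 responded more (0.27). With the untreated Nalm6 libraries of the dexamethasone set as parental controls, CCNG2 was at -0.06 (adjusted p = 0.581), FOXO4 at 0.10 (adjusted p = 0.539), KLHL24 at 0.77, FOXO3 at -0.35 (adjusted p = 8.40e-04) and BCL6 at 1.12 (adjusted p = 3.42e-06). KLHL24 was not called without the first untreated Nalm6, the second untreated Nalm6 or the first dexamethasone-treated Nalm6 library (edgeR adjusted p = 0.0525, 0.0621 and 0.0573). ABTB1 (-0.34) and IRS2 (-0.28) were called without the third untreated library of the derivative. In group means, FKBP5, which also rose under each glucocorticoid, went from 125 to 236 CPM under dexamethasone in the derivative. In Nalm6 it reached 547 CPM, from 113 CPM in the first controls or 83.5 in the dexamethasone set. TSC22D3 went from 7.39 to 157 CPM in the derivative. In Nalm6 it reached 474 CPM, from 21.6 or 12.3 CPM in the same controls. Whether the smaller DEPP1 rise is particular to that gene was not tested.

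How the untreated derivative differed from Nalm6 depended on which untreated Nalm6 group was used. Against the group with no drug in its title, ABTB1 was higher by 0.75 ± 0.13 (log2 ± SE, edgeR adjusted p = 0.00294) and CCNG2 by 0.56 ± 0.06 (adjusted p = 2.00e-04), so 2 of the 10 were called, beside 27.1% of all genes (15.3% higher). Both genes overlapped the dexamethasone set, ABTB1 with 9.70 CPM in the lowest library of the derivative against 10.4 in the highest of that set, and CCNG2 with 29.4 against 31.0. Against that set, an alternative added after the data had been seen, ABTB1 (0.41, edgeR adjusted p = 0.0516) and CCNG2 (0.06, adjusted p = 0.554) were not called. FOXO3 (0.34) and DEPP1 (0.39) were then higher in the derivative and KLHL24 (-0.60), BCL6 (-1.28) and FOXO4 (-0.28) lower, with adjusted p at most 0.0332. Against the first group BCL6 was lower by 0.28 ± 0.10 (adjusted p = 0.0565) and was called under DESeq2 (adjusted p = 0.0429), without a filter on low counts (0.0086) and without the second untreated Nalm6 library (0.0248). FOXO4 (0.21, adjusted p = 0.0645) was called in the unstranded counts (adjusted p = 0.0474), and KLHL24 (-0.09, adjusted p = 0.388) without the third untreated library of the derivative (-0.17, adjusted p = 0.0299). The differences for FOXO1 (0.02), FOXO3 (0.06), DEPP1 (0.11), CITED2 (0.002) and IRS2 (-0.01) were not called against it.

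In CEM prednisolone raised all 7 genes that could be tested, beside 45.1% of all genes called (22.3% higher and 22.8% lower), with a median of 0.44 against 0.02 over all genes. KLHL24 went from 29.6, 27.5 and 30.1 CPM to 49.9, 49.5 and 50.03 CPM (log2 fold change 0.75 ± 0.04, edgeR adjusted p = 8.29e-11). ABTB1 went from 12.6, 15.3 and 12.1 CPM to 22.2, 20.1 and 21.5 CPM (0.64 ± 0.07, adjusted p = 1.81e-06). FOXO4, which responded about as much as KLHL24, went from 16.4, 15.6 and 16.7 CPM to 29.7, 26.9 and 27.3 CPM (0.76 ± 0.05, adjusted p = 3.28e-09). No treated library overlapped a control in any of these. CITED2 rose by 0.43, CCNG2 by 0.44 and FOXO3 by 0.11 ± 0.04 (adjusted p = 0.0176), the last not called by DESeq2 (adjusted p = 0.0745) or without untreated replicate 1 (0.1) or treated replicate 1 (0.0751) or 3 (0.0534). These controls are also those of the CHIR-99021 comparison in CEM.

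BCL6 rose in CEM. It read 12.8, 12.7 and 11.7 CPM untreated and 17.4, 16.4 and 17.7 CPM with prednisolone, 0.43 ± 0.06 higher on the log2 scale (edgeR adjusted p = 1.01e-05). The response of CEM minus that of Nalm6 was 2.80 ± 0.12 for BCL6 (adjusted p = 1.16e-14), at doses of 10 and 5 µM. This difference was 0.39 ± 0.09 for FOXO4 (adjusted p = 0.00161), -0.54 ± 0.05 for KLHL24 (adjusted p = 3.56e-08) and -0.63 ± 0.07 for CCNG2 (adjusted p = 1.64e-07), so 4 of 7 were called beside 26.9% of all genes (14.7% higher and 12.2% lower). With the dexamethasone set as Nalm6 controls, an alternative added after the data had been seen, only BCL6 (3.82, edgeR adjusted p = 1.32e-17) and FOXO4 (0.91, adjusted p = 1.73e-07) were called, KLHL24 was at 0.0016 (adjusted p = 1) and CCNG2 at -0.10 (adjusted p = 0.326). The differences for FOXO3 (0.14), ABTB1 (-0.26) and CITED2 (-0.03) were not called. FOXO3 was called with at least 10 counts required in every library (0.16, adjusted p = 0.0158) and without the third prednisolone-treated Nalm6 library (0.18, adjusted p = 0.0151). ABTB1 was called without the first untreated, the third untreated or the first treated CEM library (adjusted p = 0.0385, 0.0238 and 0.0469).

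**Figure D3:**
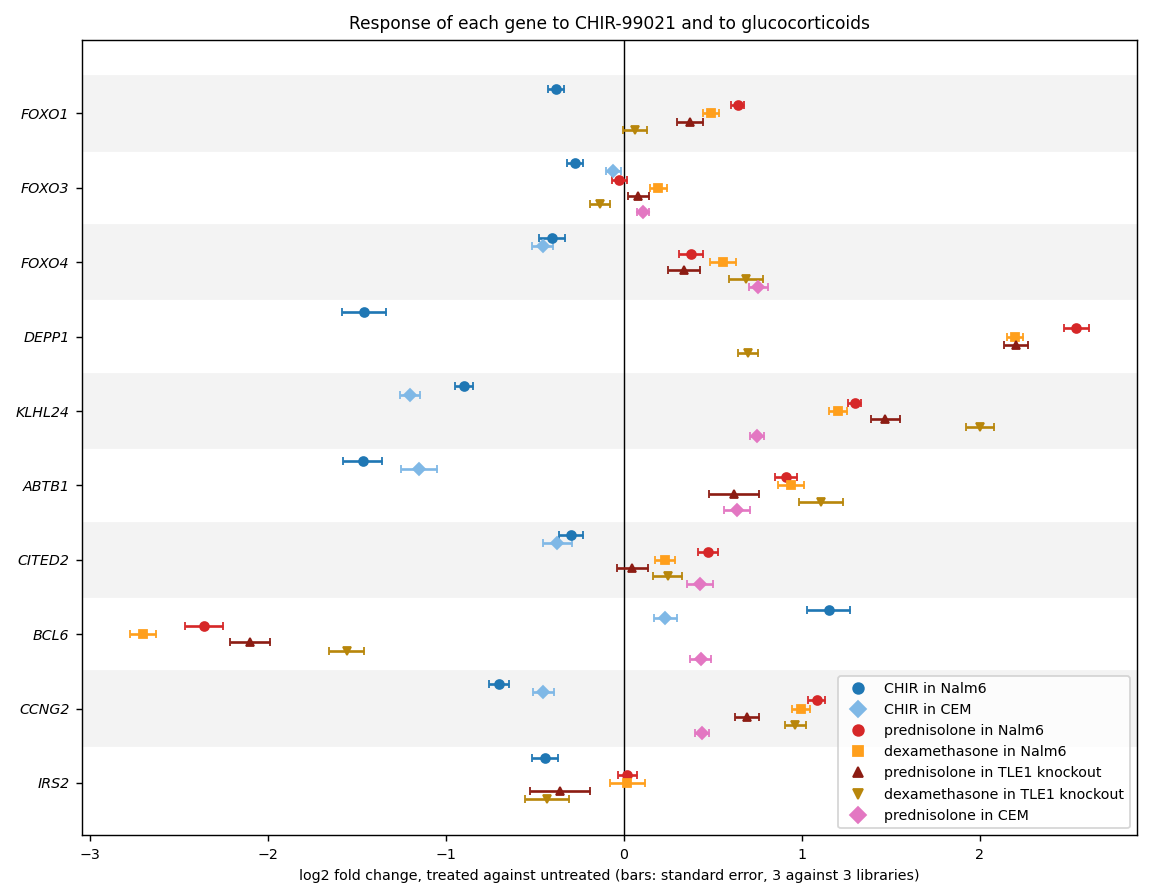
Log2 fold change of each gene, treated against untreated, in the 7 treatment comparisons (points: edgeR estimate from 3 against 3 libraries; bars: standard error; CHIR-99021 in blue shades; genes not testable in CEM have no CEM point). DEPP1, KLHL24, ABTB1 and CCNG2 lie left of 0 under CHIR-99021 and right of 0 under every glucocorticoid for which they have a point, and BCL6 lies left of 0 under glucocorticoid in Nalm6 and its derivative but right of 0 in CEM.

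The genes did not all follow 1 profile across the groups. Over the 8 group means of Nalm6 and its derivative, which include the CHIR-99021 values used for the choice and share line and culture, log2 levels of DEPP1 tracked FOXO1 most (Pearson r = 0.988) and ran against BCL6 (r = -0.939). KLHL24 and ABTB1 tracked CCNG2 instead (r = 0.965 and 0.969), and FOXO4 tracked CCNG2 (r = 0.938) more than it tracked FOXO1 (r = 0.613). IRS2 had an r of at most 0.339 with any other gene of the 10. Over all 11 group means and 11288 genes ranked, those most like DEPP1 were LINC02137 (r = 0.996), PREX1 (r = 0.995) and CA2 (r = 0.995), where DEPP1 is close to 0 in the 3 CEM groups. Those most like KLHL24 were BCAS3 (r = 0.991), UNKL (r = 0.981) and SNX15 (r = 0.980), and those most like ABTB1 were SDAD1P1 (r = 0.989), PDK2 (r = 0.952) and RRAGA (r = 0.951).

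Other known FOXO targets were examined as a list of 28 genes, of which 27 were matched. Under prednisolone in Nalm6, where 54.8% of all genes were called, 15 of 23 tested rose and 5 fell, with a median log2 fold change of 0.35 against 0.03 over all genes, and under dexamethasone (60.5% of all genes called) the counts were again 15 and 5 of 23 (median 0.34). In the derivative 14 rose and 4 fell of 22 under prednisolone (median 0.36, 41.7% of all genes called), and 15 rose and 3 fell under dexamethasone (median 0.59, 52.3% of all genes called). In CEM 15 rose and 4 fell of 24 (median 0.21, 45.1% of all genes called). PIK3IP1, an inhibitor of PI3 kinase, rose by 4.94 to 6.12 on the log2 scale in all 5 comparisons, from 0.865 to 38.3 CPM under prednisolone in Nalm6 and from 2.60 to 130.2 CPM in CEM. In the derivative its rise of 4.94 under prednisolone was 3.27 in the unstranded counts. Over all alternatives the rise was as low as 3.66 under prednisolone and 5.08 under dexamethasone in Nalm6. It was as low as 4.06 under dexamethasone in the derivative and 4.88 in CEM. KLF2, a factor of lymphocyte quiescence, rose by 5.13 and 4.25 in Nalm6 and by 5.01 and 4.89 in the derivative, from controls under 1 CPM. TXNIP, a brake on glucose uptake, rose by 3.04 and 3.63 in Nalm6 and by 2.02 and 2.20 in the derivative. In CEM the list's other large rises were in IL7R, the interleukin-7 receptor (3.48), and BCL2L11, which encodes the death protein BIM (2.19). All of these were called (edgeR adjusted p at most 4.70e-07). FOXO activity was not measured. Whether these genes rose through FOXO proteins or through the glucocorticoid receptor was not tested.

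Under CHIR-99021 the genes of the same list that were called went in both directions. In Nalm6 3 of its 24 tested genes rose and 5 fell (median -0.09), beside 7.88% of all genes called, and 3 to 13 were called in fits without single libraries, 3 without untreated replicate 2 or 3 and 13 without treated replicate 3. In CEM 5 rose and 8 fell of 24 (median -0.07), beside 10.8% of all genes called. These medians compare with medians of -0.01 and -0.005 over all genes. BBC3, a death gene, fell by 0.82 ± 0.10 in Nalm6 (edgeR adjusted p = 0.00144), and MXI1, an antagonist of MYC, by 0.31 ± 0.06 (adjusted p = 0.0120), the latter not called without untreated replicate 2 or 3 (adjusted p = 0.0681 and 0.0821). IL7R rose by 0.37 in Nalm6 (adjusted p = 0.00406) and by 0.50 in CEM (adjusted p = 7.63e-04). In CEM KLF2 fell by 0.79 ± 0.16 (adjusted p = 0.00830) and PIK3IP1 by 0.68 ± 0.15 (adjusted p = 0.0143), the latter not called in the unstranded counts (-0.41, adjusted p = 0.0917) or without replicate 1 of either group (adjusted p = 0.0517 and 0.0524). Under prednisolone in CEM, in a comparison that shares these controls, KLF2 and PIK3IP1 rose by 1.58 and 5.61.

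Genes that act on FOXO proteins or on beta-catenin, 17 in all, split in both directions. Under prednisolone 5 rose and 5 fell in Nalm6 (54.8% of all genes called), 3 rose and 6 fell in the derivative (41.7%), and 6 rose and 5 fell in CEM (45.1%). Under dexamethasone 8 rose and 5 fell in Nalm6 (60.5%), and 6 rose and 6 fell in the derivative (52.3%). The medians lay between -0.03 and 0.08. SGK1, a kinase that inactivates FOXO proteins, rose by 2.87 ± 0.08 (edgeR adjusted p = 1.21e-14) and 3.27 ± 0.11 (adjusted p = 9.29e-12) in Nalm6, by 0.99 under prednisolone in the derivative and by 1.22 in CEM. Its rise of 0.40 under dexamethasone in the derivative (adjusted p = 0.0401) was lost under DESeq2 (adjusted p = 0.0970) and without any 1 of the untreated replicates or treated replicate 1 or 3 (adjusted p from 0.0575 to 0.167), and was 0.92 once the difference between both untreated Nalm6 groups was subtracted. SKP2, a ligase subunit that marks FOXO1 for degradation, fell by 0.89 and 1.11 in Nalm6 and by 0.79 and 0.70 in the derivative. GSK3B, a target of CHIR-99021, rose by 0.76 under prednisolone and 1.28 under dexamethasone in Nalm6, the former being 1.22 with the dexamethasone set as controls, and FOXM1, a forkhead factor of proliferation, fell by 0.71 under prednisolone in the derivative. MDM2 fell by 0.44 under dexamethasone there but was not called with the control difference subtracted (-0.08, adjusted p = 0.477). In CEM PIK3R1, a PI3 kinase subunit, rose by 1.23. Under CHIR-99021 PIK3CD, a PI3 kinase subunit of lymphocytes, fell in CEM (-0.28, adjusted p = 4.11e-04) and in Nalm6 (-0.24, adjusted p = 0.0169), in the latter not without untreated replicate 2 or 3 (adjusted p = 0.0977 and 0.109). FOXM1 fell in Nalm6 (-0.27, adjusted p = 0.0315), but not without any 1 of the untreated replicates or treated replicate 1 (adjusted p from 0.0615 to 0.143). SGK1 (0.35) and the FOXO kinase AKT2 (-0.13) were called in CEM under CHIR-99021, each not without replicate 1 or 3 of the untreated or replicate 1 of the treated libraries, among other settings (adjusted p up to 0.106 and 0.136).

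**Figure D4:**
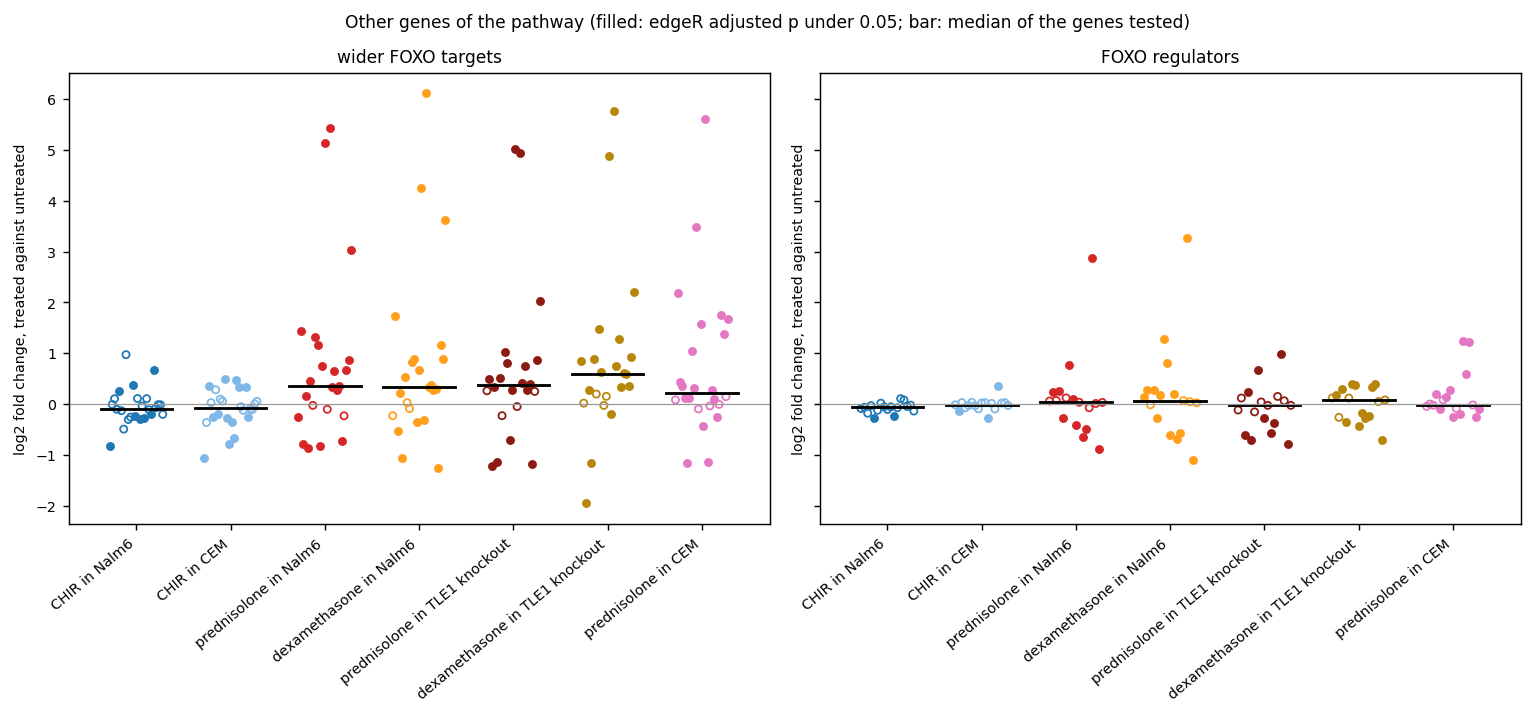
Log2 fold change, treated against untreated, of other FOXO targets and of FOXO regulators in the 7 treatment comparisons (points: genes tested; filled: edgeR adjusted p under 0.05; open: not called; black bar: median of the genes tested). The target list has medians from 0.21 to 0.59 in the 5 glucocorticoid comparisons and of -0.09 and -0.07 under CHIR-99021, and the regulator list has medians from -0.03 to 0.08 in the glucocorticoid comparisons.

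Some counts carry a limit from overlapping genes. In the GENCODE v29 annotation DEPP1 overlaps RASSF4 on the opposite strand, CITED2 and BCL6 overlap antisense genes, and FOXO1 overlaps LINC00598 on its own strand. The strand-specific column keeps the opposite-strand reads apart, but not those of LINC00598. In the unstranded column DEPP1 had log2 fold changes on the same side of 0 and was called in each glucocorticoid comparison of Nalm6 and its derivative.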

How the data were processed

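Levels came from the read counts per gene that the authors deposited, in the layout of STAR's gene count files; the submitters' processing notes name Bowtie2, DESeq2 and hg19, and how reads were aligned is otherwise not given in the sources used here. The titles do not tie Nalm6 prednisolone libraries to an untreated group. The labels' treatment protocol gives prednisolone to the parental line and CHIR-99021 to the knockout, whereas titles and series text do the opposite, and the titles were followed. Column 4 (one strand) held 12.3 to 15.3 times the counts of column 3 and was used throughout, with the unstranded column 2 as an alternative. The 4 rows of unassigned reads were left out; outside-gene reads were 18.4% to 32.7%, unmapped 2.84% to 11.2%, multiply mapped 4.83% to 7.55% and ambiguous 4.70% to 7.45%. Counts are of reads without molecular identifiers, so limits such as 3 counts for a gene at 0 (0.0484 to 0.119 CPM) cover counting error only.

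Each comparison was fitted on its own groups with edgeR 4.0.16 in R 4.3.3 (filterByExpr, TMM, quasi-likelihood F test, Benjamini-Hochberg over all genes tested, called at an adjusted p under 0.05), after a check on simulated counts. SE is the log2 fold change divided by the square root of F. Alternatives were DESeq2 1.42.0, RLE size factors, column 2, a minimum of 10 counts per library in place of filterByExpr, no such minimum, the replicate number as a block, each library left out, and other untreated controls. Replicates differed by more than sampling noise (chi-square per degree of freedom 1.77 to 39.0). The highest values, 37.5 and 39.0, were of pairs with replicate 3 of Nalm6 under CHIR-99021, a group used to choose the genes. Replicates 1 and 2 of that group gave 5.26. Exon lengths are from GENCODE v29 and promoter sequences from RefSeq, GRCh38.p14; the files' gene coordinates are not used. The genes, lists and tests were chosen with earlier results of these data known. Named genes are the 10 genes, the 3 called list genes with the largest change per comparison (average log2 CPM at least 1), TLE1, TSC22D3, and the 3 genes most like DEPP1, ABTB1 and KLHL24, apart from a gene that is not reported here; FKBP5 also rose in each glucocorticoid comparison.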

Additional observations from a re-analysis of the deposited data

Results flagged for a closer look

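The response to prednisolone differed between the TLE1 knockout and Nalm6, by a test of the difference itself, for CCNG2 (-0.37 on the log2 scale) and CITED2 (-0.41), both responding less in the knockout. Neither call held with the dexamethasone set as Nalm6 controls (0.16 and -0.19), and each was lost without some single libraries, 5 of 12 for CCNG2 and 8 of 12 for CITED2. Between CEM and Nalm6 it differed for BCL6 (2.80), FOXO4 (0.39), KLHL24 (-0.54) and CCNG2 (-0.63), with negative values for a smaller response in CEM, where the dose was 10 µM against 5 µM. With the dexamethasone set as Nalm6 controls BCL6 (3.82) and FOXO4 (0.91) were still called, and KLHL24 (0.0016) and CCNG2 (-0.10) were not. BCL6 is the gene whose direction differed, a fall in Nalm6 and a rise in CEM. In the comparison of dexamethasone responses that was added after the data had been seen, the knockout differed from Nalm6 for DEPP1 (-1.24), CCNG2 (-0.56), FOXO4 (-0.38), FOXO1 (-0.34) and KLHL24 (0.27). With the dexamethasone set as parental controls CCNG2 (-0.06) and FOXO4 (0.10) were not called. FOXO3 (-0.35) and BCL6 (1.12) were called then, and KLHL24 stood at 0.77, still called. With the first controls KLHL24 lost its call without any 1 of 3 single libraries. The dexamethasone libraries of the knockout have no untreated group of their own, so library set and treatment cannot be told apart.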

How the results depend on the processing

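Of 2060 recomputed log2 fold changes, 1922 kept their direction and side of the threshold, 64 lost the call, 32 gained one and 42 changed sign. For the 10 genes under CHIR-99021, which carry no test, no call was compared. A value there counted as kept if its direction held and it lay near the main value relative to its SE. The sign changes were of values near 0 or followed other controls. With the untreated Nalm6 libraries of the dexamethasone set, prednisolone in Nalm6 gave FOXO3 0.22 and FOXO4 -0.15, and in the comparison of dexamethasone responses FOXO4 was 0.10 and ABTB1 0.15. With the same libraries as Nalm6 controls, added after the data had been seen, the untreated knockout minus Nalm6 gave FOXO4 -0.28, CITED2 -0.19 and IRS2 0.32, with 5 of the 10 genes called. The knockout minus Nalm6 response to prednisolone gave FOXO3 -0.13, FOXO4 0.50, ABTB1 0.10 and CCNG2 0.16, with 6 of the 10 and 4345 of all genes called. The CEM minus Nalm6 response gave FOXO3 -0.11, KLHL24 0.0016, ABTB1 0.11 and CITED2 0.18, with 2 of 7 called. Subtracting the difference between both untreated Nalm6 groups gave FOXO3 0.14 under dexamethasone in the knockout and left 5 of the 10 genes called there in place of 8. IRS2 in Nalm6 was -0.0048 under prednisolone without a filter and -0.013 under dexamethasone in the unstranded column. CITED2 in the untreated knockout against Nalm6 was -0.0011 with RLE factors, -0.0011 with DESeq2, -0.0027 without a filter and -0.0082 with at least 10 counts in every library. Fits without single libraries ranged from -0.034 to 0.065 for IRS2 under prednisolone and -0.13 to 0.10 under dexamethasone in Nalm6, and from -0.0080 to 0.081 for CITED2 under prednisolone in the knockout. For the untreated knockout against Nalm6 they ranged from -0.048 to 0.065 for FOXO1, -0.032 to 0.053 for CITED2 and -0.10 to 0.14 for IRS2. They ranged from -0.086 to 0.045 for FOXO4 in the knockout minus Nalm6 response to prednisolone and from -0.089 to 0.012 for CITED2 in the CEM minus Nalm6 response. The cause of these changes was not tested.

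Counts over all genes moved more. CHIR-99021 in Nalm6 called 1425 genes, 2320 without a filter, 925 with the replicate block, and 409 to 2708 without single libraries, the lowest without untreated replicate 3 and the highest without CHIR-99021 replicate 3. In CEM the count without single libraries was 1001 to 1948, and for the untreated knockout against Nalm6 2804 to 6732. The knockout minus Nalm6 response to prednisolone called 624 genes, 981 without a filter and 361 to 1852 without single libraries, and of the 10 genes 2, against 4 without a filter, 1 in the unstranded column and 0 to 5 without single libraries. Same-numbered libraries of the groups compared did not deviate together in all pairs (correlations from -0.351 to 0.213), so the numbers were not taken as pairs. In the prednisolone comparisons of Nalm6 and CEM, each of the 3 treated libraries correlated best with the untreated library of its own number. These correlations were low, from 0.0680 to 0.160 in Nalm6 and from 0.0298 to 0.0490 in CEM. With the replicate block the 10 genes had 8 calls under prednisolone and 9 under dexamethasone in Nalm6, as without it. Depth limits FOXO1, DEPP1 and IRS2 in CEM, whose responses cannot be read at these counts.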
